A study of Saccharomyces cerevisiae with 2 samples.

Results

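Many open reading frames (ORFs) of budding yeast were known for years only by a systematic name, which encodes chromosome, arm, position and strand. Some encode conserved proteins that were characterized later, and others are predicted from sequence alone. The 76 ORFs described here are unnamed ORFs whose read share differed between 2 sequenced libraries, of a TRA1 wild-type strain and a tra1-L3733A mutant. They were chosen from 6603 listed ORFs in steps. Of these, 1707 had a name equal to their identifier, and 1016 of the 1707 overlapped no other listed ORF. At least 100 reads over both libraries were found for 649 of the 1016, and 76 of those had a ratio of tra1-L3733A to TRA1 of at least 1.5 or at most 1/1.5. The ratio compares the reads of an ORF per total of its file. It selected the members, so their ratios are given as a description, with no test.

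Tra1, a giant relative of the PI3 kinases, recruits the SAGA and NuA4 histone acetyltransferase complexes to promoters through activator proteins. L3733A replaces a leucine with an alanine near the end of the protein. Messenger RNA of Saccharomyces cerevisiae was sequenced from strains CY2706 (TRA1-wt) and CY3003 (tra1-L3733A), grown at 30 °C in YP with 2% glucose to an A600 of 2.0. The series asks how gene expression differs between these strains, and the labels used here name no further alleles. With 1 library per strain there is no replicate check, and all comparisons are between these libraries. A lower read share and less RNA per cell cannot be told apart in such bulk samples. Where a pair of values is given, TRA1 comes before tra1-L3733A. Intervals are exact 95% Clopper-Pearson counting intervals of a ratio. They cover counting error only, leave out variation among cultures, and treat every read as an independent molecule, which PCR copies are not.

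The libraries held 11564964 (TRA1) and 9970836 (tra1-L3733A) counts. The TRA1 gene had 12035 and 5102 reads, a ratio of 0.492 (0.476 to 0.508). The 5 a-cell marker genes summed to 967 and 875 reads per 1e6 counts, and the 4 alpha-cell marker genes to 57.8 and 91.3. The a-cell markers did not move together. BAR1 (243 and 181) and STE6 (389 and 355) were lower, STE2 was level (301 and 302), and MFA1 (17.6 and 19.6) and MFA2 (16.3 and 16.9) were slightly higher. All 4 alpha-cell markers were higher. SAG1 (45.05 and 69.1) made up most of their sum, beside STE3 (5.88 and 8.93), MF(ALPHA)1 (2.77 and 8.42) and MF(ALPHA)2 (4.06 and 4.81), which had few reads. Over all 5875 ORFs with at least 100 reads the median log2 ratio was -0.10 when scaled by file totals.

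Ratios of unnamed and named ORFs had close medians. The median log2 ratio was -0.13 (SD 0.36 across ORFs) for 649 unnamed and -0.10 (SD 0.32) for 4211 named non-overlapping ORFs. A ratio of at most 1/1.5 was found for 62 unnamed ORFs, 9.55% of 649, against 8.31% of the named ORFs and 8.17% of all ORFs with at least 100 reads. A ratio of at least 1.5 was found for 14, 2.16%, against 1.09% and 1.40%. In either direction 11.7% of the unnamed, 9.40% of the named and 9.57% of all ORFs passed. The share for lower ORFs was thus near the background, and whether the shares differ beyond the spread between cultures could not be tested. Scaled with the trimmed mean of M-values (TMM), the split among unnamed ORFs was 21 higher and 49 lower, so that 30% of the calls were higher, against 18.4% with file totals. All 14 higher members kept their side of the threshold under TMM and 49 of the 62 lower members did.

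**Figure D1:**
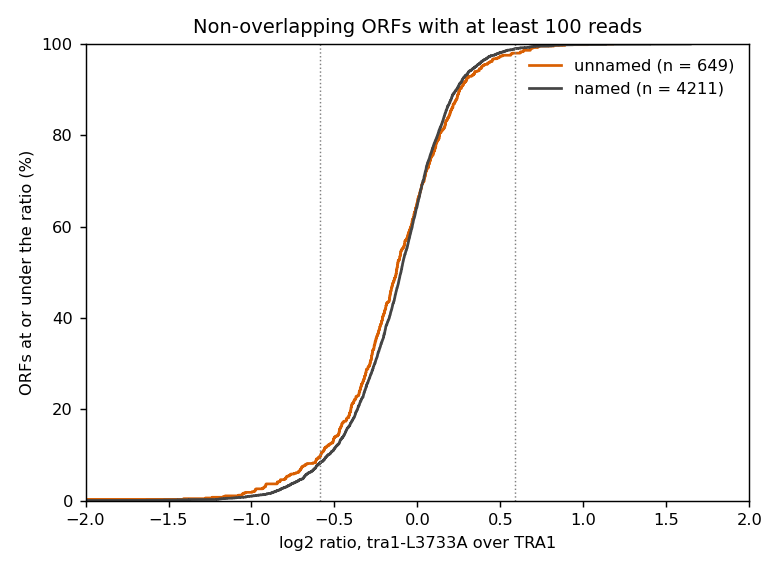
Cumulative share of non-overlapping ORFs with at least 100 reads (vertical axis, %) against their log2 ratio of tra1-L3733A to TRA1 (horizontal axis), for 649 unnamed and 4211 named ORFs, with dotted lines at ratios of 1/1.5 and 1.5. The curves run close together, with medians of -0.13 and -0.10.

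The members were a small share of either library. Together they held 32549 reads or 0.281% of the TRA1 counts and 21005 reads or 0.211% of the tra1-L3733A counts. Among lower members the reads per ORF ran from 68 over a median of 259.5 to 2297 for TRA1 and from 21 over 113 to 1045 for tra1-L3733A. Among higher members they ran from 37 over 113 to 1256 and from 64 over 156 to 1893. The median over members of both libraries' reads was 344, against 623 for the other 573 unnamed ORFs, so member ratios rest on fewer reads. Per length, the median level was 34.1 reads per kb per 1e6 counts for TRA1 and 20.8 for tra1-L3733A, against 28.7 and 26.1 for the other unnamed ORFs. The fall of the members between libraries, per length and in share of counts, follows from the rule, which took 62 of the 76 as lower. Ratios of lower members ran from 0.251 to 0.664 with a median of 0.577, and 11 were past 2-fold. Ratios of higher members ran from 1.535 to 2.26 with a median of 1.61, and 2 were past 2-fold. Every interval of the 76 excluded 1. The intervals use the same counts as the rule, and a ratio past 1.5 either way on at least 100 reads nearly fixes this. Those of only 23 lower members and 1 higher member lay wholly past the 1.5 threshold.

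**Figure D2:**
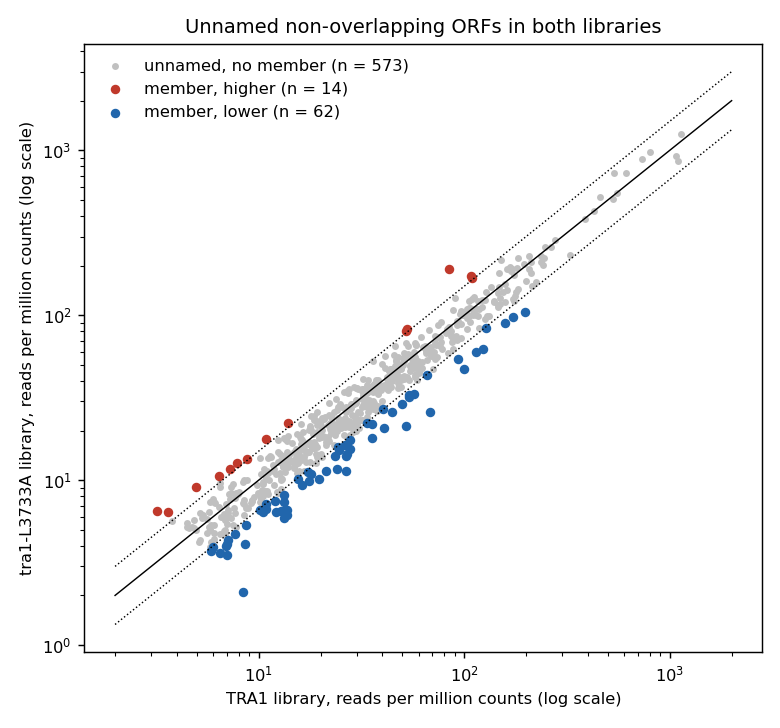
Reads per 1e6 counts for TRA1 (horizontal, log scale) and for tra1-L3733A (vertical, log scale) for 649 unnamed non-overlapping ORFs. The solid line marks equal levels and the dotted lines a ratio of 1.5 either way; the 14 higher and 62 lower members lie beyond the dotted lines because the rule took them there.

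At the thresholds, the last lower member was PDR18 at 0.664 (0.569 to 0.773), and the nearest unnamed ORF outside was YOR020W-A, MCO10 in R64, at 0.667 (0.532 to 0.835). The last higher member was YCR051W at 1.535 (1.38 to 1.71), and YCL048W-A lay outside at 1.48 (1.09 to 2.04). The member with the fewest reads was YCR007C with 102, and YIR020C, at a ratio of 0.504, missed the minimum with 99. Each ratio on one side of a ratio threshold lay within the interval of its neighbour on the other side.

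Many of these ORFs have since received names. The R64 reference annotation of RefSeq lists 75 of the 76 members, all but YJL156W-A, and gives a gene symbol to 41 of them, 33 lower and 8 higher. That is 53.9% of the members, against 51.3% of the other unnamed ORFs (294 of 573). Below, R64 symbols are used with the systematic name at first mention, roles are those of the R64 annotation, and ORF coordinates are the files' own. The roles were sorted into groups after the values were known, so the groups carry no test. Only members were sorted, so the share of each group that passed the thresholds is not known. Of all 76 members 62 were lower, so a group made up mostly or only of lower members says little by itself.

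Sequences are shown for 4 members whose promoters hold an element that the R64 annotation or textbook knowledge ties to stress, from 250 bases before to 50 after the R64 start codon, 5′ to 3′ on the coding strand (RefSeq, R64). Capitals mark GGTGGCA or its reverse complement, the core of the element read by the proteasome gene activator Rpn4, in the first 3, and AGGGG, the stress response element read by Msn2 and Msn4, in the last. They lie at chrXIV:342266-342565 (plus strand), chrXV:427175-427474 (minus strand), chrVIII:175298-175597 (plus strand) and chrXIV:692311-692610 (plus strand).
CUZ1: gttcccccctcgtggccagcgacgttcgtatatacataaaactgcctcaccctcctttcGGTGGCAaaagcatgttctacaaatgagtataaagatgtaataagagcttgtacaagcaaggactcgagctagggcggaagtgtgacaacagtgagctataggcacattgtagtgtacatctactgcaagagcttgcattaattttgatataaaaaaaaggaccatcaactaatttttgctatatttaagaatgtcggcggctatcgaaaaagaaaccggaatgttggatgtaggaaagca
TMC1: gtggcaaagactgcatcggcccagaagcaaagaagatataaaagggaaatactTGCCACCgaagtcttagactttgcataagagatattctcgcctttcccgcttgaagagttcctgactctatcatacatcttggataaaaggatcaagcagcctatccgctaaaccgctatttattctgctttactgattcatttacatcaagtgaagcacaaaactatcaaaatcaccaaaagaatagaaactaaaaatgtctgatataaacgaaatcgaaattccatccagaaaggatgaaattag
YHR033W: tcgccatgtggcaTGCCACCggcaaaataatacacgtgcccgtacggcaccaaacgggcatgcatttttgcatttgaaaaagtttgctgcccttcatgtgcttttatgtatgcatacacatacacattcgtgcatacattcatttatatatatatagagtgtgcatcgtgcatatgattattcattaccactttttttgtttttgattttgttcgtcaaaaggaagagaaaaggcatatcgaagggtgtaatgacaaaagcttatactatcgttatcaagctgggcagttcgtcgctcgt
EGO4: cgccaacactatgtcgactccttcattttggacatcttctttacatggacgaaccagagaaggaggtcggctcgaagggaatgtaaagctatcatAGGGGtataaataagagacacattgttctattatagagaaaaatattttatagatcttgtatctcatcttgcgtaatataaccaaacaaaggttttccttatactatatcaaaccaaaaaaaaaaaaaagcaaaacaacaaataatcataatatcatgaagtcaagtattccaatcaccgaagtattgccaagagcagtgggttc

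Searched on both strands of that window, GGTGGCA was found in 3 of 61 lower members with a promoter window (4.92%), in 1 of 14 higher members and in 2.88% of 6001 R64 protein-coding genes. The 3 lower members are CUZ1, TMC1 and TVS1. The matches in CUZ1 and TMC1 start 191 and 197 bases before the start codon, and the match in YHR033W, which was higher, starts 237 bases before it. AGGGG was found in 22 of 61 lower members (36.1%), in 4 of 14 higher members (28.6%), in 26.2% of the other unnamed ORFs and in 21.6% of all genes. TATAAA, the TATA element, was found in 11 of 14 higher members (78.6%), 29 of 61 lower members (47.5%) and 45.2% of all genes. CACGTG, read by Pho4 and Cbf1, was found in 2 of 61 lower members (3.28%) and 2.92% of all genes, and TGACTC, read by Gcn4, in 6 (9.84%) and 7.98%. Each of these 2 motifs was found in 1 of 14 higher members (7.14%). For CACGTG this was YHR033W, where the match is not in capitals above, nor is an AGGGG match in CUZ1. GATAAG, read by GATA factors, was found in 18% of the lower members, 16.2% of the other unnamed ORFs and 14.7% of all genes. CCAAT, read by the Hap complex, was found in 37.7%, 42.5% and 43.3%. TTACTAA, read by Yap1, was found in 11.5%, 10.9% and 7.45%, and in 0 of 14 higher members. GCGATGA, the core of the PAC element, was found in 11.5%, 7.86% and 6.78%. The 4 identical copies described below are lower members, and each holds a match to AGGGG, one to GATAAG and one to GCGATGA. With these copies counted once, AGGGG was found in 19 of 58 lower members (32.8%). On the same count GATAAG was found in 8 (13.8%) and GCGATGA in 4 (6.9%), both below their shares in the other unnamed ORFs. These matches describe letters in a window and were not tested against the ratios.

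Among higher members, YHR033W (chromosome VIII, 175541 to 176812) stood farthest from 1. R64 calls it a putative glutamate 5-kinase, an enzyme activity of proline synthesis. It had 972 TRA1 reads and 1893 tra1-L3733A reads, a ratio of 2.26 (2.09 to 2.44). Its duplicate PRO1, which encodes the glutamate 5-kinase itself, had 769 and 621 reads, for a ratio of 0.937 (0.841 to 1.04). The interval of the duplicate thus included 1 while that of YHR033W lay wholly above 1.5.

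EGO4 (YNR034W-A, XIV, 692563 to 692859) is annotated as a gene of stationary phase under control of Msn2 and Msn4. It had 1248 and 1729 reads, for a ratio of 1.61 (1.49 to 1.73). Its duplicate EGO2 had 115 and 83 reads, for a ratio of 0.837 (0.624 to 1.12). NNR2 (YKL151C, XI, 164922 to 165935), an NADHX dehydratase that repairs damaged NADH and is annotated as heat shock induced, had 1256 and 1686 reads, for a ratio of 1.56 (1.45 to 1.68). YHR033W, EGO4 and NNR2 were the higher members with the most reads. YCH1 (YGR203W, VII, 905242 to 905688), a phosphatase of the Cdc25 family, had 610 and 818 reads, for a ratio of 1.56 (1.40 to 1.73), and YCR051W (III, 214067 to 214735), an ankyrin repeat protein, had 603 and 798.

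The other 9 higher members had at most 221 reads per library. They include 2 mitochondrial proteins, MIM2 (YLR099W-A) of the outer membrane import complex at 1.60 (1.30 to 1.98) on 160 and 221 reads, and CIM1 (YOR114W), which limits mitochondrial DNA copy number, at 1.85 (1.32 to 2.63) on 57 and 91. DFP3 (YCR007C), a DUP240 family membrane protein, was at 2.04 (1.34 to 3.14) on 37 and 65 reads. NFG1 (YLR042C), a negative regulator of filamentous growth, was at 1.54 (1.18 to 2.01) and PBI1 (YPL272C) at 1.60 (1.20 to 2.15). YMR187C, YHL049C and YGL204C, with no annotated function, were at 1.62 (1.23 to 2.14), 1.65 (1.31 to 2.09) and 1.66 (1.22 to 2.27). YMR244W was at 1.77 (1.18 to 2.67). Intervals of these 9 reached down to between 1.18 and 1.34.

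**Figure D3:**
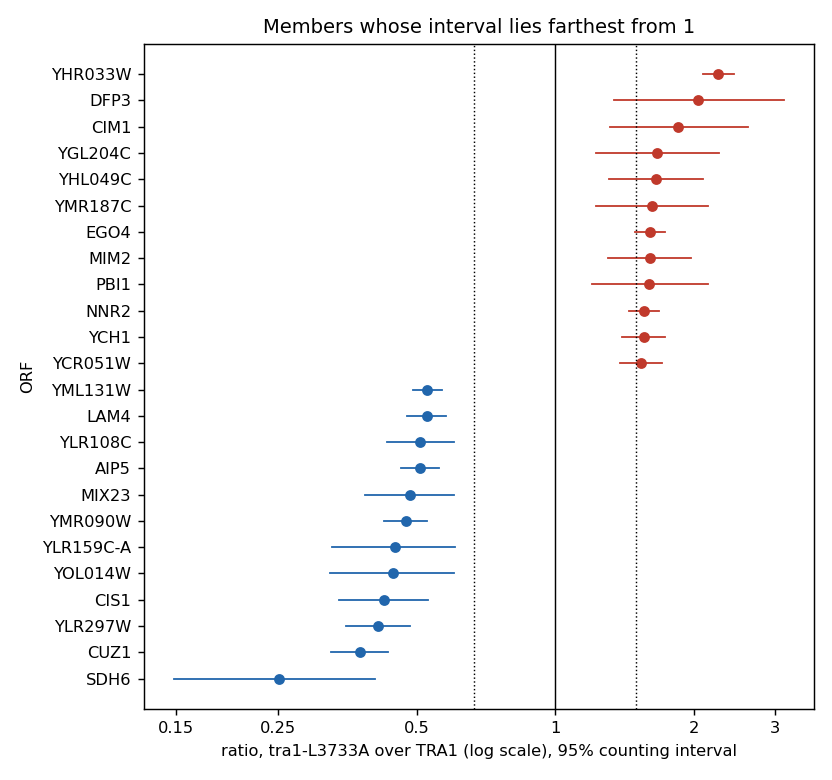
Ratio of tra1-L3733A to TRA1 (horizontal, log scale) with its 95% counting interval for the 12 higher and the 12 lower members whose interval lies farthest from 1; the solid line marks 1 and the dotted lines 1/1.5 and 1.5. SDH6 at 0.251 and YHR033W at 2.26 are the ends of the range, and the short intervals of YHR033W, EGO4 and NNR2 rest on their larger counts.

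Proteins of ubiquitin and proteasome biology made up 6 lower members and no higher ones, where 62 of all 76 members were lower. CUZ1 (YNL155W, XIV, 342518 to 343342), an AN1 zinc finger protein that binds Cdc48 and the proteasome, had 792 and 257 reads, for a ratio of 0.376 (0.326 to 0.434). TMC1 (YOR052C), the other AN1 zinc finger protein among the members and an annotated Rpn4 target, had 1832 and 891 reads, for a ratio of 0.564 (0.520 to 0.611). Both were lower, and the intervals do not overlap. MIY2 (YPL191C), a deubiquitinase that trims long ubiquitin chains, had 202 and 98 reads, for a ratio of 0.563 (0.437 to 0.720). Its duplicate MIY3 (YGL082W), annotated as lacking catalytic activity, was itself a member at 0.612 (0.533 to 0.700) on 624 and 329 reads. RFU1 (YLR073C), an inhibitor of the deubiquitinase Doa4, was at 0.627 (0.518 to 0.756), and GLD1 (YPR109W), a trafficking adaptor of the Dsc ubiquitin ligase, at 0.589 (0.513 to 0.676).

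Mitochondrial proteins were 5 lower and 2 higher members, the latter MIM2 and CIM1. SDH6 (YDR379C-A, IV, 1233271 to 1233510), an assembly factor of succinate dehydrogenase, had the lowest ratio of all members, 0.251 (0.149 to 0.406), on 97 and 21 reads. CIS1 (YLR346C, XII, 822287 to 822592), annotated as found in mitochondria and controlled by the drug resistance factors Pdr1 and Yrr1, had 309 and 113 reads, for a ratio of 0.424 (0.339 to 0.528). INA22 (YIR024C), which assembles the peripheral stalk of ATP synthase, was at 0.481 (0.356 to 0.645) on 159 and 66 reads. MIX23 (YBL107C, II, 9961 to 10551), of the intermembrane space, was at 0.484 (0.386 to 0.603) on 278 and 116 reads, and MRX8 (YDR336W), a GTPase at the mitochondrial ribosome, at 0.626 (0.466 to 0.835). SDH6 and INA22, both assembly factors of respiratory enzymes, rest on few reads.

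Chromosome proteins were 4 lower members. KRE28 (YDR532C), a kinetochore subunit, was at 0.506 (0.372 to 0.682) on 149 and 65 reads, and WIP1 (YDR374W-A), a kinetochore protein that binds Cnn1, at 0.597 (0.483 to 0.735). MTE1 (YGR042W), which acts in telomere maintenance, had 411 and 180 reads, for a ratio of 0.508 (0.424 to 0.607). SLD7 (YOR060C), a replication protein that binds Sld3, was at 0.602 (0.473 to 0.763). Ribosome-linked members were also lower, with RRP36 (YOR287C), a factor of early ribosomal RNA cleavage, at 0.531 (0.421 to 0.666), YBL028C, a nucleolar protein, at 0.619 (0.505 to 0.756) and YJL213W at 0.616 (0.506 to 0.748).

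Membrane and lipid proteins were 10 lower members. LAM4 (YHR080C, VIII, 262803 to 266840), a sterol-binding protein of the cortical ER, had 1316 and 597 reads, for a ratio of 0.526 (0.477 to 0.580). ATG38 (YLR211C), a subunit of the autophagy phosphatidylinositol kinase complex, was at 0.480 (0.325 to 0.698) on 99 and 41 reads. SND2 (YLR065C), which targets proteins to the ER, had 578 and 287 reads, for a ratio of 0.576 (0.498 to 0.665). LDO16 (YMR148W) was at 0.556 (0.456 to 0.676), NEL1 (YHR035W), an activator of the Sar1 GTPase, at 0.557 (0.363 to 0.839) and LDS2 (YOL047C), a spore wall protein at lipid droplets, at 0.608 (0.442 to 0.830). BLI1 (YKL061W), an endosomal BLOC-1 subunit, was at 0.613 (0.421 to 0.882) and EMA19 (YLR050C), which reroutes mitochondrial precursors at the ER, at 0.662 (0.559 to 0.782). YHR138C, a relative of the protease inhibitor Pbi2, was at 0.532 (0.433 to 0.650). PDR18 (YNR070W), an ABC transporter that serves sterol incorporation, had 468 and 268 reads, and its neighbour YNR071C, a putative aldose epimerase, had 81 and 35 and a ratio of 0.501 (0.327 to 0.754).

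Enzymes and putative enzymes were 9 lower and 3 higher members, the latter YHR033W, YCH1 and NNR2. YML131W (XIII, 10199 to 11296), a dehydrogenase-like protein annotated as stress induced, was the lower member with the most reads, 2297 and 1045, and had a ratio of 0.528 (0.490 to 0.568). YMR090W (XIII, 449244 to 449927), similar to sugar dehydratases, had 1151 and 470 reads, for a ratio of 0.474 (0.425 to 0.528). YKL033W-A, of the haloacid dehalogenase family, had 1998 and 972 reads, for a ratio of 0.564 (0.522 to 0.610). PPN2 (YNL217W), a vacuolar endopolyphosphatase that mobilizes stored phosphate, had 1084 and 540 reads, for a ratio of 0.578 (0.520 to 0.641). YBR242W, a deoxynucleotidase, was at 0.654 (0.579 to 0.737), and its duplicate YGK1 (YGL101W) at 0.970 (0.822 to 1.14). NGK1 (YLR446W), an N-acetylglucosamine kinase, was at 0.654 (0.476 to 0.892), and the quinone oxidoreductase relatives YCR102C and YLR460C at 0.654 (0.482 to 0.881) and 0.661 (0.513 to 0.848).

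Cytoskeleton and signalling proteins were 3 lower members beside the higher EGO4 and NFG1. AIP5 (YFR016C, VI, 177034 to 180735), which promotes actin assembly, had 1421 and 622 reads, for a ratio of 0.508 (0.461 to 0.558). ANK1 (YGL242C), an ankyrin repeat protein that copurifies with type I myosins, had 657 and 331 reads, for a ratio of 0.584 (0.510 to 0.668), and GAG1 (YLR407W), which interacts with casein kinase subunit Cka2, had 516 and 257 and a ratio of 0.578 (0.495 to 0.672).

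No function was assigned to 21 members, of which 15 were lower and 6 higher. The lowest was YLR297W (XII, 724046 to 724435), a vacuolar protein in tagged strains, with 599 and 213 reads, for a ratio of 0.412 (0.351 to 0.483). YOL014W (XV, 299694 to 300068) was at 0.444 (0.323 to 0.604) on 154 and 59 reads, and the nuclear protein YLR108C (XII, 366668 to 368125) at 0.509 (0.430 to 0.601) on 469 and 206. VPR1 (YIL152W) was at 0.523 (0.410 to 0.664), and TVS1 (YCR061W), a predicted multispanning membrane protein, at 0.657 (0.603 to 0.716) on 1471 and 833 reads. The other 10 lower members without a function, YJL156W-A among them, had ratios from 0.531 for YBL086C to 0.656 for YLR030W. The duplicates that R64 names for YLR297W and CIS1 had 25 and 29 reads over both libraries, too few for a comparison, and the duplicate of YLR108C, MRX16, was at 0.917 (0.746 to 1.13) on 215 and 170 reads.

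**Figure D4:**
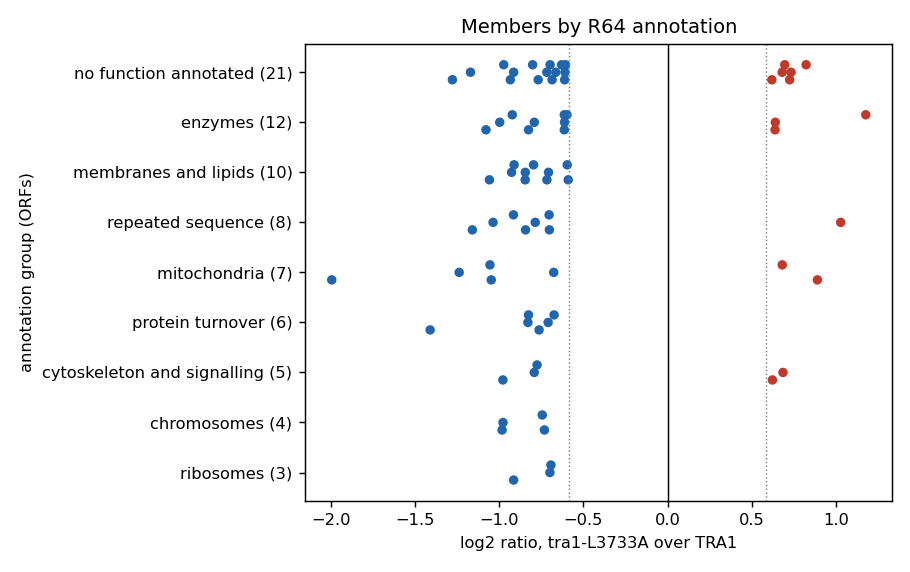
Log2 ratio of tra1-L3733A to TRA1 (horizontal) for the 76 members by annotation group (vertical, number of ORFs in parentheses), with a solid line at 0 and dotted lines at a ratio of 1.5 either way. Higher members (red) are found in the groups of enzymes, mitochondria, signalling, repeated sequence and no function, and the other 4 groups hold lower members (blue) alone. Of all 76 members 62 were lower.

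The annotation group of repeated or duplicated sequence holds 8 members, 7 lower and 1 higher. The 4 ORFs YLR154C-H, YLR156C-A, YLR157C-C and YLR159C-A lie in the ribosomal DNA repeats. They have the same 132 bases in R64, with 0 differing bases in any pair, so their reads cannot be assigned to a copy. Whether these reads come from ribosomal RNA rather than from messenger RNA of the ORFs was not tested. The shared coding sequence is shown because it makes these 4 members 1 measurement, and it is given for YLR154C-H at chrXII:468827-468958 (R64, minus strand).
YLR154C-H: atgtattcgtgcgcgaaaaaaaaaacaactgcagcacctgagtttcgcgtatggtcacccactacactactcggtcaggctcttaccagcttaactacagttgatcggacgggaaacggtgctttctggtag

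The 4 copies had 140, 157, 153 and 158 reads for TRA1 and 64, 66, 81 and 61 for tra1-L3733A, in the order named. Summed they had 608 and 272 reads, for a ratio of 0.519 (0.448 to 0.600). Of YHR054C, a partial copy of RSC30 near the CUP1 repeats, none of the 35-base words of its R64 sequence was found once in the genome. It was at 0.557 (0.417 to 0.740), on reads that cannot be assigned to it alone, and RSC30 was at 0.934 (0.821 to 1.06). YAR066W, a putative GPI protein, was at 0.580 (0.386 to 0.858) and had a copy, YHR214W, at 0.904 (0.619 to 1.31). DFP1 (YAR023C), a DUP240 relative of DFP3, was at 0.615 (0.432 to 0.866). Words of 35 bases, the read length, were unique in R64 for less than 95% of the sequence in 9 members. These were 12% of 75, against 4.81% of the other unnamed ORFs. They were the 4 copies, YHR054C, YAR066W, YHL049C, YCR102C and YLR460C. The annotation group is thus not the same set. YHL049C, which was higher, and YCR102C and YLR460C, which were lower, were sorted into other groups. DFP1 and DFP3, in the repeat group, had 100% unique words.

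Spans under 300 bp were found for 11 of 76 (14.5%), against 38 of 573 other unnamed ORFs (6.63%), with 4 of the 11 being the identical copies. The median span was 717.5 against 1028 bp. In R64, 8 of 75 members (10.7%) lay within 20 kb of a chromosome end, against 4.63% of the others, and these were YHL049C, MIX23, YNR071C, PDR18, YML131W, YAR066W, YCR102C and YLR460C. Short span, low reads and ratio past the threshold cannot be told apart here.

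Neighbouring ORFs mostly did not share the ratio. The nearest listed ORF of the 14 higher members was never itself at 1.5 or more, and the median ratio of these neighbours was 0.888. Among all 5875 ORFs with at least 100 reads only 1.40% were at 1.5 or more, so finding no such neighbour among 14 says little. Of the 57 lower members whose nearest ORF had a ratio, that neighbour was at most 1/1.5 for 10 (17.5%), against 9.47% for the other unnamed ORFs, and its median was 0.898 against 0.935. PDR18 and YNR071C, 1063 bp apart, are each other's neighbour and count as 2 of the 10. FCF2, 251 bp from EMA19, had 723 and 390 reads, for a ratio of 0.626 (0.552 to 0.709). BSC2, 291 bp from YDR274C, was at 0.590 (0.482 to 0.719), and PRM3, 540 bp from MIY2, at 0.580 (0.358 to 0.921). YHR054W-A, 258 bp from YHR054C, was at 0.432 (0.405 to 0.461). It overlaps CUP1-2, which was at 0.426 (0.398 to 0.456), so its reads cannot be separated from those of CUP1-2. YAR064W, near YAR066W, was at 0.232 (0.0997 to 0.481) on 45 and 9 reads. SAE3, PAU7 and YCR102W-A had at most 20 reads per library.

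Both read columns of the files, headed fr and rr, pointed to the same side of 1 for all 76 members, which is in part given because the sum of the columns selected them. Both columns were past 1.5 in the same direction for 8 of 14 higher and 37 of 62 lower members. For no member were the intervals of the columns apart. SDH6 was at 0.206 on fr and 0.312 on rr reads. The identical copy YLR159C-A was at 0.227 (0.111 to 0.427) on 61 and 12 fr reads and at 0.588 (0.408 to 0.837) on 97 and 49 rr reads. Among lower members, DFP1 had the rr ratio nearest to 1, at 0.912 (0.541 to 1.52), and YLR285C-A the fr ratio nearest to 1, at 0.884.

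**Figure D5:**
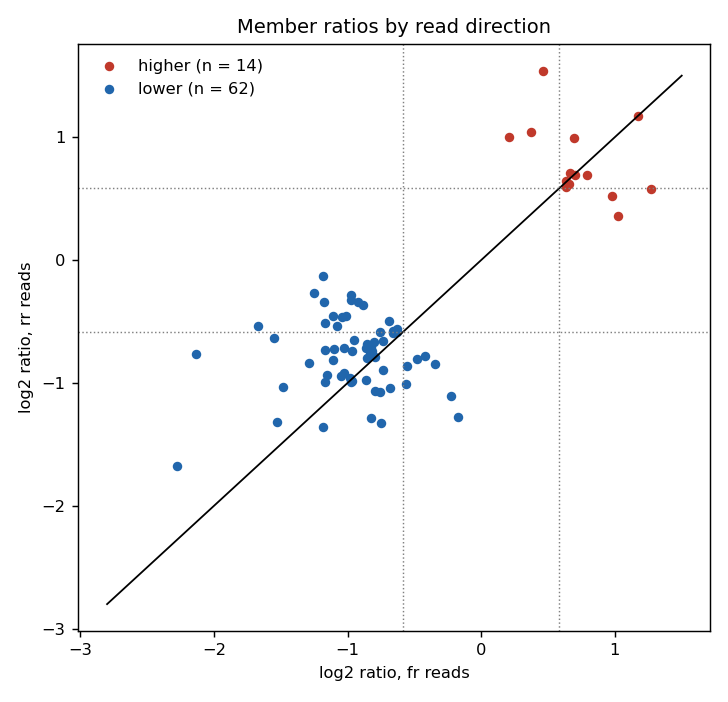
Log2 ratio of tra1-L3733A to TRA1 from fr reads (horizontal) and from rr reads (vertical) for 14 higher and 62 lower members, with the line of equality and dotted lines at a ratio of 1.5 either way. All points lie in the quadrant of their direction, with SDH6 at the lower left.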

How the data were processed

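Messenger RNA was sequenced in 1 library per strain, as 35-nucleotide reads from 1 lane each (13014880 reads for TRA1 and 11156078 for tra1-L3733A, per the labels' protocols). Novoalign is named as aligner per the submitters' processing notes. Version, build and annotation are not given in the sources here. Raw read counts, as deposited, are given per ORF in columns fr and rr, per the file headers, which were taken as read directions and summed. Their deposited coverage signal equals this sum per base of span in 13206 entries, to a tolerance of 1e-06, and was not used further.

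Ratios were scaled by file totals, since the rule for the members uses them. With 1 library per strain no test was possible, so edgeR 4.0.16 supplied TMM factors and DESeq2 1.42.0 size factors (R 4.3.3) as alternatives only. Intervals used scipy 1.17.1, and the calculation was tested on simulated data. Counts limit precision, and a count of 0 allows up to 3 reads. Names, roles, promoters and unique 35-base words came from RefSeq R64 by identifier, with no coordinate of the files combined with R64. The genes named are members with an R64 symbol, the 12 per direction with the interval farthest from 1, those at thresholds, same-direction neighbours and TRA1. Other ORFs named, among them the R64 duplicates and those of the closing section, were chosen after their values were seen. The members, lists and groups were chosen with earlier results of these data known.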

Additional observations from a re-analysis of the deposited data

How the results depend on the processing

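Counts of unnamed ORFs moved by over 1.5 times with the read minimum. They were 28 higher and 96 lower at 20 reads, 7 and 36 at 300 reads, and 91 and 162 with no minimum, against 14 and 62. With overlapping ORFs kept they were 31 and 103, and 40 were lower where the nearest listed ORF had to be at least 200 bp away, each by construction of the set. Among named ORFs, 46 higher and 350 lower became 87 and 220 with TMM and 88 and 217 with DESeq2 size factors, and 29 were higher at 300 reads. The median log2 ratio of unnamed ORFs went from -0.13 to -0.03 with TMM (-0.0291) and with DESeq2 size factors (-0.0279). Requiring the interval to exclude 1 changed no count, an outcome that the ratio and read thresholds nearly fix in advance. Scaling by lane reads, single read columns and R64 identifiers only left the counts within 1.5 times. So did keeping only ORFs with at least 95% unique words, a setting chosen after seeing the data. With that last setting 13 were higher and 53 lower. No member ratio changed direction under any scaling or single read column. All 14 higher members stayed past the threshold with TMM, DESeq2 and lane-read scaling, and 49, 49 and 61 of 62 lower members did. No paired analysis was possible because each strain has 1 library. Counting error limits the members with few reads most.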

Other observations

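Unnamed ORFs that overlap another listed ORF were left out of the members, and 496 of them had at least 100 reads. Of these 496, 17 were at a ratio of at least 1.5 and 41 at most 1/1.5, and only 14 of the 58 that passed are listed in R64. Among all 5875 ORFs with at least 100 reads, 1.40% were at least 1.5 and 8.17% at most 1/1.5. EIS1 (YMR031C), an eisosome protein, had 2044 and 995 reads, for a ratio of 0.565 (0.523 to 0.609). MNC1 (YBR056W-A) was at 0.502 (0.408 to 0.616) and AFB1 (YLR040C) at 0.493 (0.366 to 0.659). Both were chosen after their values were seen, as was EIS1. Reads of such ORFs cannot be separated from those of the ORF they overlap.

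The most abundant unnamed non-overlapping ORFs per length were not members. YDR524C-B was at 5339 reads per kb per 1e6 counts for TRA1 and 4610 for tra1-L3733A, with the ratio at 0.864 (0.841 to 0.887). NCW1 (YMR122W-A) was at 4484 and 4924, a ratio of 1.10 (1.07 to 1.13). YNL134C was at 968 and 766, a ratio of 0.792 (0.770 to 0.814). Other ORFs lay between these, among them YLR154W-B at 3260.5 and 4456.9, a ratio of 1.37, and YLR154W-A at 3319.4 and 3958.6, a ratio of 1.19. YLR154C-G, in the ribosomal DNA, was at 4931 and 5926, and 0% of its 35-base words are unique in R64.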
